A study of Mus musculus with 16 samples.

Results

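Axon guidance genes encode the secreted and membrane-bound cues, and the receptors for them, that steer growing axons. In the whole-testis expression table of this series they were selected by gene symbol alone: semaphorins (Sema followed by a number and a letter from a to g), plexins, neuropilins, Slits, Robos, the netrins *Ntn1*, *Ntn4* and *Ntn5*, the netrin receptors *Dcc*, *Neo1* and *Unc5a* to *Unc5d*, ephrins and Eph receptors. This rule found 69 of the 35983 genes listed, 34 ligands and 35 receptors in 9 families, and used no measured value. Testes came from mice carrying conditional ("floxed") alleles of *Lrh1* (*Nr5a2*), a nuclear receptor gene, on a mixed 129Sv and C57Bl/6J background. At postnatal day 1 (P1), controls were *Lrh1* flox/- without Cre and mutants were *Lrh1* flox/- with *Nanos3-Cre*, which acts in germ cells, so that testes of both groups carried a single floxed copy. At postnatal day 3 (P3), controls were *Lrh1* flox/flox without Cre and mutants were *Lrh1* flox/flox with *Dhh-Cre*, which acts in Sertoli cells from fetal life. Each group had 4 samples, 16 in all, and the labels do not say how many animals each sample came from. RNA input to the stranded mRNA libraries was 400 ng at P3, and at P1 it was 500 ng in 3 samples of each group and 400 ng in the remaining 1. The deposited expression values are the authors' means over each group, in FPKM (fragments scaled to gene length and to library total), so that values can be compared between genes per length. No value per sample was used, so the spread between samples and the depth of each library are unknown here, no test was run, and every difference below is a description of group means.

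Many of these cues act outside the nervous system, on cell adhesion, cell movement, vessel growth and the sorting of cells at tissue borders. Semaphorins bind plexins, the secreted class 3 forms mostly through neuropilins as co-receptors. Slits bind Robos, netrin-1 binds DCC, neogenin and the UNC5 receptors, and ephrins, which stay attached to the cell that makes them, bind Eph receptor tyrosine kinases and can signal in both directions. The testis at these ages holds Sertoli cells in tubules around the germ cells, and outside the tubules peritubular myoid cells, Leydig cells, mesenchyme, vessels, macrophages and nerves, any of which could carry these mRNAs.

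Most of the 69 genes were detected in every group. A mean of at least 0.5 FPKM was seen in all 4 groups for 57 of them, and 8 stayed under 0.5 FPKM in every group: *Sema3e*, *Plxnb3*, *Slit1*, *Robo3*, *Ntn5*, *Unc5d*, *Epha10* and *Epha6*. The ephrin gene *Efnb1* had the highest mean in both P1 groups (84.9 and 95.8 FPKM, controls first) and in P3 *Dhh-Cre* mutants (62.6 FPKM), while in P3 controls *Plxna1* stood first at 71.6 FPKM. Summed over the family, semaphorins had 145, 163, 224 and 152 FPKM in P1 controls, P1 mutants, P3 controls and P3 mutants, and plexins had 114, 132, 172 and 116 FPKM in the same order. Semaphorins and plexins were therefore highest in P3 controls, with the P3 mutants near the P1 levels. Ephrins showed another order, with summed means of 162, 189, 112 and 150 FPKM, lowest in P3 controls. The netrins of the symbol rule, *Ntn1*, *Ntn4* and *Ntn5*, had summed means of 2.51, 3.37, 6.88 and 11.8 FPKM, highest in P3 mutants. This sum leaves out *Ntn3*, which was read with the other guidance ligands and receptors below. *Ntn3* alone had 14.917, 16.394, 9.115 and 14.024 FPKM in the same order, above that sum in every group. Its mean was highest in P1 mutants and lowest in P3 controls.

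**Figure D1:**
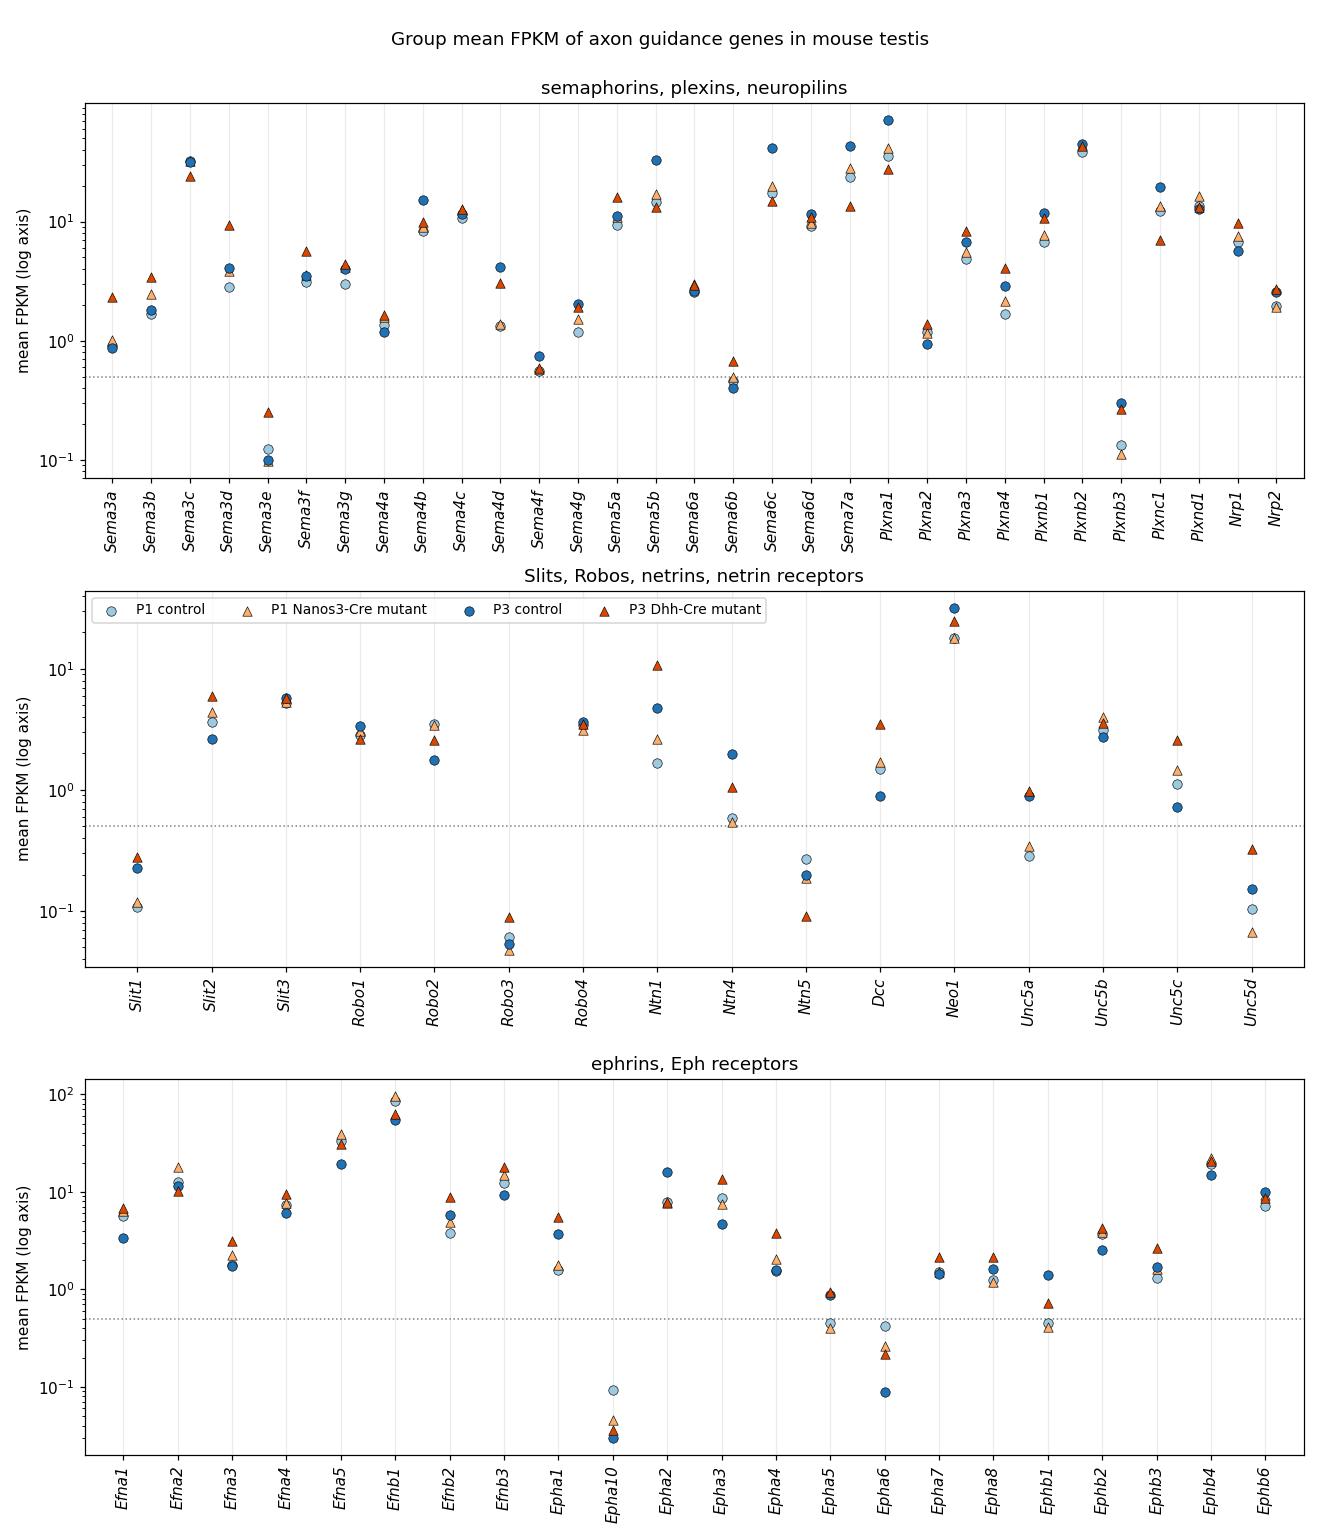
Mean FPKM of each of the 69 axon guidance genes (log axis) in the 4 groups, by family; each point is the authors' mean over 4 samples, with no error bars because the spread is unknown, and the dotted line marks 0.5 FPKM. *Efnb1* reaches 95.8 FPKM in P1 mutants, *Plxna1* 71.6 FPKM in P3 controls, and 8 genes lie under the dotted line in every group.

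*Nr5a2* itself had means of 0.764 and 0.491 FPKM in P1 controls and mutants and of 1.15 and 0.609 FPKM in P3 controls and mutants, taken over the whole gene and all cells, so the deletion is checked only in part. Group means of cell type markers also differed between groups. At P3, 14 of 15 Sertoli cell markers with enough signal were lower in *Dhh-Cre* mutants. Their log2 ratios had a median of -1.45, and their summed means were 1941 and 756 FPKM, controls first. All 10 markers of interstitial mesenchyme were higher (median 1.00; sums 1087 and 2347 FPKM), as were 6 of 7 mesothelium markers (median 1.20), 10 of 10 macrophage markers (median 0.94) and 10 of 10 endothelial markers (median 0.74). The mesothelium exception, *Wt1*, was also in the Sertoli cell list. At P1, all 11 germ cell markers kept were lower in *Nanos3-Cre* mutants (median -0.79; sums over the 12 markers 56.8 and 33.7 FPKM), and Sertoli cell markers had a median of 0.11. The paper's own comparison across samples at P1 found very few misexpressed genes, with none of these germ cell markers among them. Whether germ cells were fewer at P1 was not tested here. In RNA from whole testes, fewer cells of a type and less RNA per cell cannot be told apart. By separate cell counts, the paper reports fewer Sertoli cells per area in *Dhh-Cre* mutants. It gives the loss at P3 as 3-fold and looked only at genes past that change.

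The main question at P3 was how expression changed when *Lrh1* was deleted in Sertoli cells. Guidance genes were found on both sides. Higher in the mutants by more than 2-fold were 9 genes, the ligands *Sema3a*, *Sema3d*, *Slit2*, *Ntn1* and *Efna1* and the receptors *Dcc*, *Unc5c*, *Epha3* and *Epha4*. Lower by more than 2-fold were 5 genes, all of the semaphorin system: the ligands *Sema5b*, *Sema6c* and *Sema7a* and the receptors *Plxna1* and *Plxnc1*. Ratios here are the log2 of the mutant mean divided by the control mean, each with 0.1 FPKM added, for genes with an average of at least 0.5 FPKM over the 2 groups, which 61 of the 69 genes reached. The 9 higher genes were 14.8% of these 61, where 4.75% of all 16923 genes kept in the table were higher by this rule. The 5 lower genes were 8.2% of the 61, where 3.58% of all genes kept were lower. The semaphorin system was a large part of the 61, with 19 semaphorins, 8 plexins and 2 neuropilins. It also held 2 of the higher genes, *Sema3a* and *Sema3d*. A single one of the 61, *Sema6b* (0.403 and 0.672 FPKM), was kept only because of its level in the mutants. Over the 61 genes, 39 had a ratio above 0 and 22 below, with a median of 0.28 and quartiles of -0.19 and 0.66, beside a median of 0.00 over all genes. Nearest to the limit were *Efna1* just inside it (1.01), and *Efnb3* (0.96) and *Epha2* (-0.99) just outside.

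**Figure D2:**
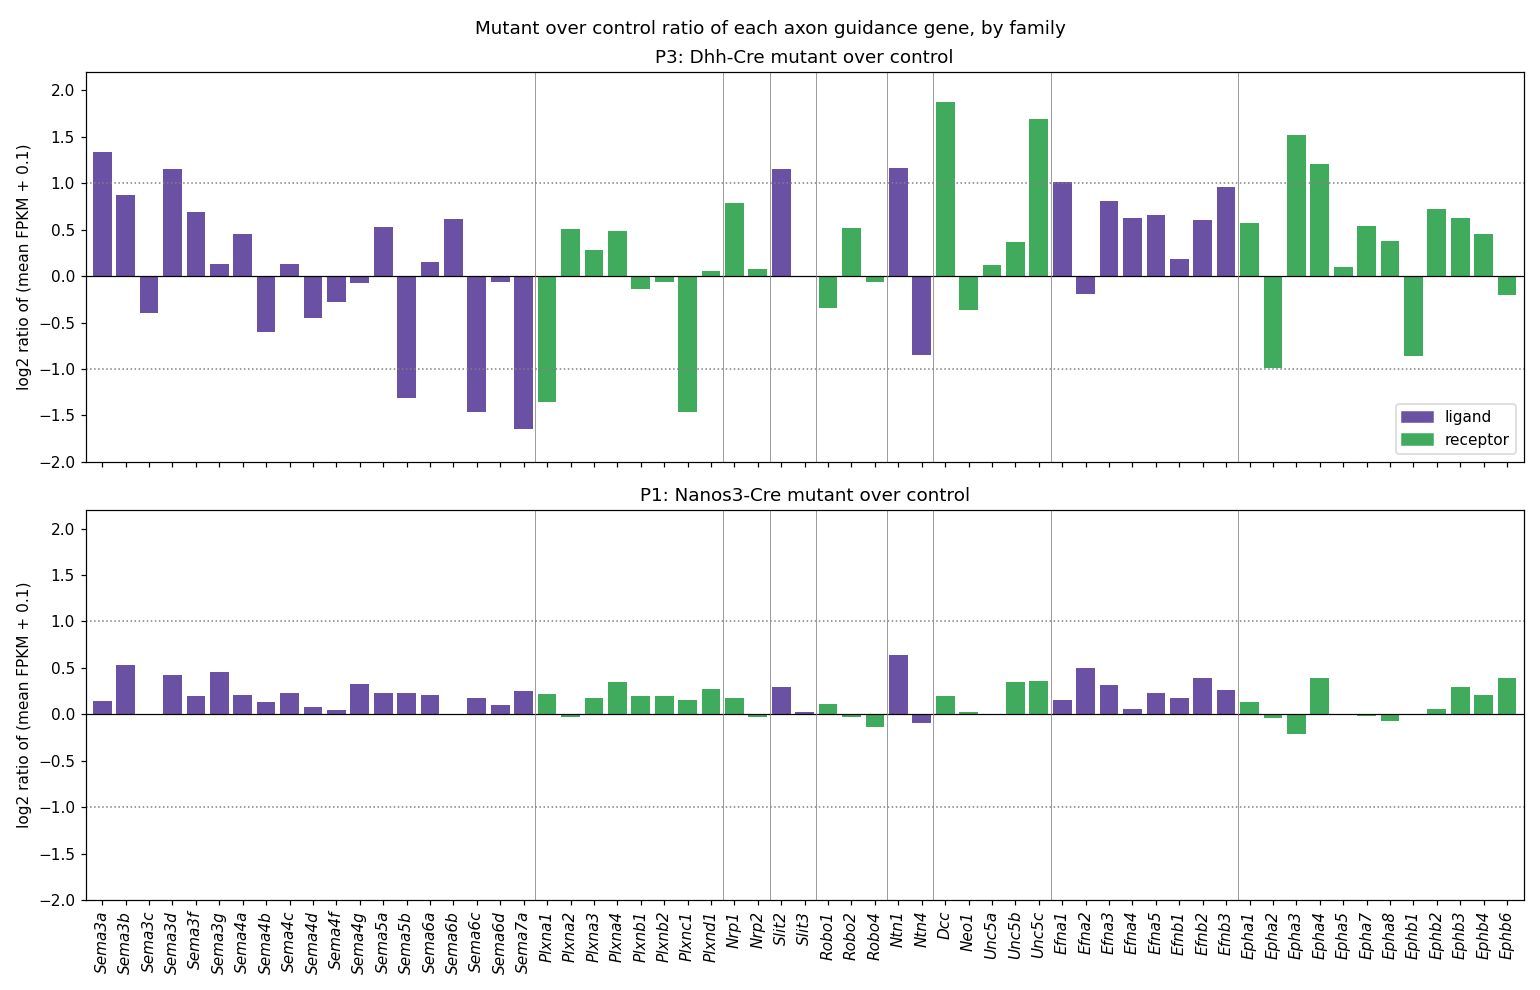
Log2 of the mutant mean FPKM over that of controls, 0.1 added to each, for the 61 axon guidance genes kept at P3 (top, *Dhh-Cre*) and for those also kept at P1 (bottom, *Nanos3-Cre*), ligands in purple and receptors in green, with families separated by vertical lines and dotted lines at 2-fold. At P3 the bars run from -1.65 (*Sema7a*) to 1.87 (*Dcc*), and at P1 from -0.21 (*Epha3*) to 0.64 (*Ntn1*); a gap at P1 is a gene under the minimum level there.

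*Sema7a* encodes a semaphorin held in the membrane by a lipid anchor, and its receptor in the plexin family is plexin C1. *Sema7a* had the lowest ratio of all the guidance genes, with means of 23.6 and 28.1 FPKM in P1 controls and mutants and of 42.9 and 13.6 FPKM in P3 controls and mutants. At P3 its mean was 3.16-fold lower in mutants (log2 ratio -1.65). *Plxnc1* (12.2, 13.5, 19.6 and 7.07 FPKM in the same order of groups) was 2.78-fold lower (-1.46). Ligand and receptor thus shared their order over the groups, highest in P3 controls and lowest in P3 mutants. *Sema7a* (ENSMUSG00000038264) spans bases 57940112 to 57962865 of chromosome 9 (GRCm38, plus strand), and *Plxnc1* (ENSMUSG00000074785) spans bases 94790866 to 94944835 of chromosome 10 (minus strand).

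The bases before the start sites of these genes were read because LRH1 and its paralog SF1 bind the same short DNA motif. CAAGGTCA or CAAGGCCA, the NR5A motif, was searched on both strands in windows of 300 bases, from 250 before to 50 after each RefSeq start site on GRCm38.p6, which were found for 59 of the 69 genes (75 windows). It was present in 2 of the 75 windows, one each of *Sema4b* and *Efnb1*, and in 3.92% of all 32851 windows in the RefSeq table. None of the 4 lower and none of the 7 higher genes of P3 that had a window contained it, which says only that these letters are not in the window. The GC box GGGCGG, searched on both strands in the 250 bases before the start, was in 53 of the 75 windows (70.67%) and in 32.74% of all windows, in 3 of the 4 lower genes and in 3 of the 7 higher genes. The 250 bases before the start of *Sema7a* (chr9:57939862-57940111, plus strand) and of *Plxnc1* (chr10:94944846-94945095, minus strand) are shown as those of the ligand and receptor with the lowest ratios in their families, with GC boxes of either strand in capitals, and those of *Sema4b* (chr7:80186620-80186869, plus strand) for the NR5A motif, in capitals there.
Sema7a: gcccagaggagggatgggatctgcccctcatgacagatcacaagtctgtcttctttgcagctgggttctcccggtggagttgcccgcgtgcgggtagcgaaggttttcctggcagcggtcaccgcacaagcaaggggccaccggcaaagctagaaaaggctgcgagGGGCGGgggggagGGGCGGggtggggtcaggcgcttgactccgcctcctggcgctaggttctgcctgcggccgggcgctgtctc
Plxnc1: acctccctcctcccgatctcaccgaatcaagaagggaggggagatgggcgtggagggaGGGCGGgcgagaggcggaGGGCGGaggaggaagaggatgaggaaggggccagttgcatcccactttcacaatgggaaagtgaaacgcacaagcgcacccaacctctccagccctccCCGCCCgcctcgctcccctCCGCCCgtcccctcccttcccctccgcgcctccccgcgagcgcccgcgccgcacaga
Sema4b: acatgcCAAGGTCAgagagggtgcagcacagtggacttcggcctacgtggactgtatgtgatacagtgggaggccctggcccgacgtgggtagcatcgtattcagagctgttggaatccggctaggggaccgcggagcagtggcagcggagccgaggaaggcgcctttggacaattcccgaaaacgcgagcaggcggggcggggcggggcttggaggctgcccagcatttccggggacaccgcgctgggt
*Sema4b*, which encodes a transmembrane semaphorin, had means of 8.28, 9.06, 15.1 and 9.94 FPKM over the 4 groups and a P3 ratio of -0.60, short of 2-fold.

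*Plxna1*, *Sema6c* and *Sema5b* followed the same order as *Sema7a* and *Plxnc1* at P3. *Plxna1*, a receptor for class 6 semaphorins and, with neuropilins, for class 3, had means of 35.3 and 41.3 FPKM in P1 controls and mutants and 71.6 and 27.9 FPKM in P3 controls and mutants, 2.57-fold lower at P3 (-1.36). *Sema6c*, a transmembrane semaphorin, had 17.5, 19.7, 41.2 and 14.8 FPKM, 2.77-fold lower (-1.47). *Sema5b*, a transmembrane semaphorin with thrombospondin repeats, had 14.7, 17.2, 33.1 and 13.3 FPKM, 2.49-fold lower (-1.31). In each of the 5 lower genes, P3 controls were the highest of the 4 group means and P3 mutants the lowest. Their ratios lay between -1.31 and -1.65, within the range of the Sertoli cell markers in the same libraries (-2.15 to 0.14, median -1.45). *Inha*, which encodes the inhibin alpha subunit, had 498 and 212 FPKM in P3 controls and mutants, and *Amh*, for anti-Müllerian hormone, had 291 and 65.7 FPKM. The part of the Sertoli cell shift in the 5 genes was not tested.

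The other semaphorins were divided by class. Of 6 class 3 genes kept, 5 had ratios above 0 and 2 were past 2-fold, with a median of 0.78. *Sema3a*, the secreted semaphorin first known for making growth cones collapse, had 0.897, 1.01, 0.868 and 2.34 FPKM over the 4 groups, past 2-fold higher in P3 mutants (1.34). *Sema3d*, another secreted form, had 2.84, 3.84, 4.10 and 9.28 FPKM, 2.26-fold higher (1.16). *Sema3a* was thus nearly level in the other 3 groups, whereas *Sema3d* was already higher at P3 than at P1 in controls. *Sema3b* (1.81 and 3.40 FPKM in P3 controls and mutants, 0.87) and its neighbour *Sema3f* (3.47 and 5.68 FPKM, 0.69), 72.3 kb apart on chromosome 9, were both higher without reaching 2-fold. The exception was *Sema3c*, the semaphorin with the highest mean over the 4 groups, at 32.3, 32.1, 31.7 and 24.0 FPKM (-0.40). Class 4 genes had a median of -0.17, with 4 of 6 below 0 and none past 2-fold.

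Plexins other than *Plxna1* and *Plxnc1* differed little at P3. *Plxnb2*, a receptor for class 4 semaphorins, had 38.3, 43.9, 44.8 and 42.8 FPKM over the 4 groups (-0.07), and *Plxnd1*, a receptor of vessels for *Sema3e*, had 13.6, 16.4, 12.7 and 13.2 FPKM (0.05). Within plexin A, *Plxna2* (0.50), *Plxna3* (0.28) and *Plxna4* (0.49) had ratios above 0 while *Plxna1* was far below. The co-receptor *Nrp1*, which also binds VEGF, had 6.73, 7.61, 5.64 and 9.81 FPKM (0.79), and *Nrp2* had 1.97, 1.92, 2.59 and 2.73 FPKM (0.08). The median over 8 plexins was -0.01, with 4 above and 4 below 0.

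The netrin receptor genes *Dcc* and *Unc5c* held the highest ratios. *Ntn1*, which encodes the secreted netrin-1, had 1.66, 2.63, 4.71 and 10.7 FPKM over the 4 groups, 2.26-fold higher in P3 mutants (1.16), and both P3 groups were above both P1 groups. *Dcc*, whose protein mediates attraction to netrin-1, had 1.48, 1.70, 0.888 and 3.52 FPKM, 3.96-fold higher in P3 mutants (1.87), the highest ratio among the 61 genes. *Unc5c*, a receptor for repulsion from netrin-1, had 1.11, 1.45, 0.726 and 2.58 FPKM, 3.55-fold higher (1.70). Unlike *Ntn1*, both receptor genes were lowest in P3 controls. The remaining receptors showed smaller ratios: *Neo1*, which encodes neogenin and was by far the most abundant of the family, had 17.8, 18.1, 31.8 and 24.6 FPKM (-0.37), *Unc5b* had 3.14, 4.02, 2.76 and 3.58 FPKM (0.36), and *Unc5a* had 0.282, 0.341, 0.894 and 0.978 FPKM (0.12). *Ntn4*, a netrin of basement membranes, went the other way from *Ntn1* at P3, with 0.591, 0.547, 1.97 and 1.05 FPKM (-0.85), short of 2-fold.

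Among Slits, only *Slit2* was past 2-fold, with 3.60, 4.43, 2.61 and 5.95 FPKM over the 4 groups, 2.28-fold higher in P3 mutants (1.16). *Slit3* was at 5.22, 5.32, 5.75 and 5.75 FPKM, level at P3. The Robo receptors differed less: *Robo1* had 2.82, 3.05, 3.37 and 2.63 FPKM (-0.35), *Robo2* had 3.50, 3.42, 1.78 and 2.59 FPKM (0.52), and *Robo4*, known from endothelial cells, had 3.45, 3.13, 3.65 and 3.48 FPKM (-0.07). A Slit ligand was therefore higher in P3 mutants with no Robo gene past 2-fold.

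**Figure D3:**
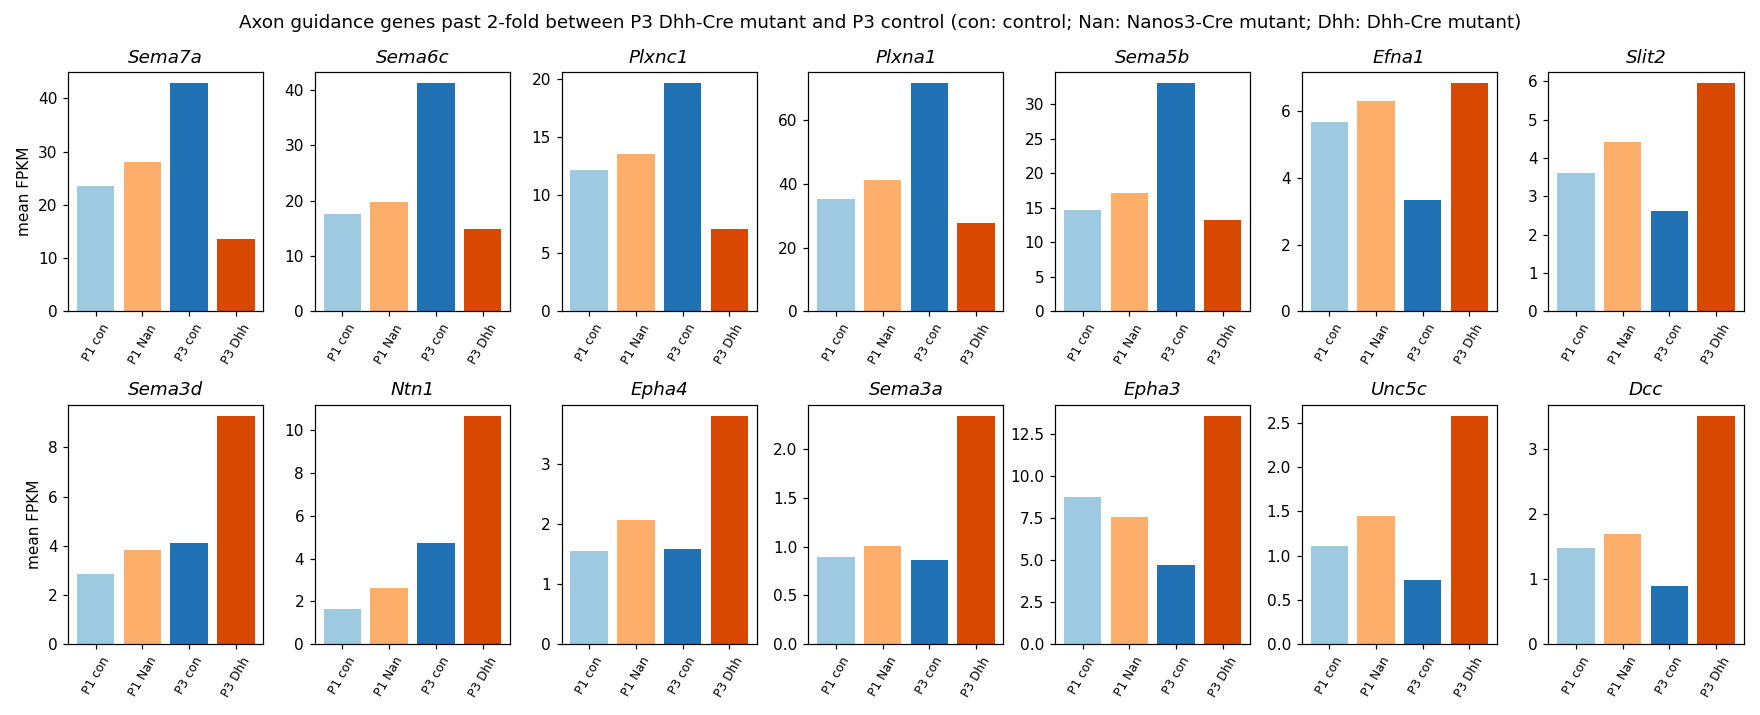
Mean FPKM in the 4 groups for the 14 axon guidance genes past 2-fold between P3 *Dhh-Cre* mutants and P3 controls, ordered by ratio; bars are the authors' group means, start at 0 and have no error bars because the spread between samples is unknown. In the 5 lower genes P3 controls form the tallest bar (*Sema7a*, 42.9 FPKM), and in the 9 higher genes P3 mutants do (*Dcc*, 3.52 FPKM).

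Ephrins and Eph receptors leaned to the higher side at P3. Of 8 ephrins, 7 had ratios above 0 (median 0.64), and of 12 Eph receptors kept, 9 did (median 0.50). *Efna1* had 5.66, 6.31, 3.33 and 6.83 FPKM over the 4 groups, 2.05-fold higher in P3 mutants (1.01). *Efnb3* had 12.3, 14.8, 9.19 and 17.9 FPKM (0.96), *Efna5* had 33.3, 39.2, 19.3 and 30.7 FPKM (0.66), and *Efnb1*, the ephrin gene of highest level, had 84.9, 95.8, 55.0 and 62.6 FPKM (0.18). The exception was *Efna2*, at 12.8, 18.1, 11.5 and 10.1 FPKM (-0.19). *Efna1*, *Efna3* and *Efna4* lie side by side on chromosome 3, with gaps of 32.8 kb and 10.4 kb, and had P3 ratios of 1.01, 0.81 and 0.62. *Efna1*, *Efna5*, *Efnb1* and *Efnb3* were all lowest in P3 controls.

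Of the Eph receptors, which are grouped by whether they mainly bind ephrin-A or ephrin-B ligands, the ephrin-A receptors held both genes past 2-fold. *Epha3* had 8.75, 7.53, 4.68 and 13.6 FPKM over the 4 groups, 2.90-fold higher in P3 mutants (1.52), and *Epha4*, which also binds ephrin-B ligands, had 1.55, 2.07, 1.59 and 3.81 FPKM, 2.39-fold higher (1.21). *Epha3* was lowest in P3 controls, while *Epha4* was nearly equal in the controls of both ages. *Epha2*, an ephrin-A receptor common in epithelia, showed the opposite, with 7.93, 7.69, 15.9 and 7.95 FPKM (-0.99), so that P3 controls alone stood apart. *Ephb1* had 0.447, 0.411, 1.41 and 0.731 FPKM (-0.86) and followed the order of *Epha2*. *Ephb4*, known from veins, had 19.1, 22.1, 15.0 and 20.7 FPKM (0.46), and *Ephb6*, whose kinase domain is inactive, had 7.13, 9.37, 10.0 and 8.72 FPKM (-0.20).

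The 9 higher genes had P3 ratios from 1.01 to 1.87. In the same libraries the mesenchyme markers ranged from 0.27 to 1.64 and the mesothelium markers from -0.40 to 1.62. The value of -0.40 is that of *Wt1*, which was also in the Sertoli cell list. *Dcc* (1.87) and *Unc5c* (1.70) lay above both ranges. The mesenchyme gene *Col1a1* (a fibrillar collagen chain) had 395 and 874 FPKM in P3 controls and mutants. Markers of Schwann cells and neurons were split: of 9 kept, 7 were above 0, with *Syt1* (0.988 and 2.36 FPKM) and *Stmn2* (0.269 and 0.733 FPKM, kept only because of its level in mutants) past 2-fold higher and *Tubb3* (29.2 and 11.4 FPKM) past 2-fold lower, and the sum over the list was 77.7 and 68.5 FPKM. Myoid and smooth muscle markers had a median of 0.34, and Leydig cell markers 0.48. The part of these cell types in the higher guidance genes was not tested.

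Other guidance ligands and receptors and the cytoplasmic proteins that carry guidance signals were read from separate lists. Of 28 other ligands and receptors, 19 were kept at P3, with 13 above 0, 6 below and a median of 0.30. *Lrrc4c*, which encodes netrin-G ligand 1, had 0.507 and 2.28 FPKM in P3 controls and mutants (1.97), and the adhesion gene *L1cam* had 0.452 and 1.07 FPKM (1.08), kept only because of its level in mutants. *Flrt1*, of a family whose proteins can bind UNC5 receptors, was past 2-fold lower, with 12.7 and 5.64 FPKM (-1.15). Of 45 cytoplasmic genes, 43 were kept, 23 above and 20 below 0, with a median of 0.02. None of them was past 2-fold higher, and 3 were past 2-fold lower: *Tiam1*, which encodes an activator of Rac (13.0 and 6.30 FPKM), *Srgap3*, of the Slit-Robo GTPase-activating proteins (18.4 and 9.11 FPKM), and *Dpysl4*, of the family that mediates semaphorin signals to the cytoskeleton (1.26 and 0.485 FPKM). These counts of few genes stand beside the 4.75% of all genes higher and 3.58% lower, and nothing is read from them about the lists.

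At P1, *Lrh1* was deleted in germ cells, and the guidance genes were read by the same rule. Of 57 genes kept, 0 were past 2-fold in either direction, where 1.15% of all 16121 genes kept were higher and 1.39% lower. At such shares a set of 57 genes would hold few or no calls, so nothing is read from the 0 about guidance genes. The ratios ran from -0.21 to 0.64. Even so, 47 of the 57 were above 0 and 10 below, with a median of 0.20, beside 0.02 over all genes, for which 8791 were above 0 and 7320 below. All 8 ephrins (median 0.25), 17 of 18 semaphorins (median 0.21) and 7 of 8 plexins (median 0.20) were above 0, against 6 of 10 Eph receptors (median 0.10). *Ntn1* had the highest P1 ratio, with 1.66 and 2.63 FPKM in controls and mutants (0.64), followed by *Sema3b* with 1.68 and 2.49 FPKM (0.54) and *Efna2* with 12.8 and 18.1 FPKM (0.50). *Epha3*, past 2-fold higher at P3, had the lowest P1 ratio (8.75 and 7.53 FPKM, -0.21). Beside the lower germ cell markers, macrophage markers (median 0.61) and mesothelium markers (median 0.37) were above 0 and myoid markers below (median -0.49), and their part in the guidance genes was not tested. Of the 18 other ligands and receptors kept at P1, 15 were above 0 (median 0.23), and of 41 cytoplasmic genes 28 were (median 0.05), with 0 past 2-fold in both lists.

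**Figure D4:**
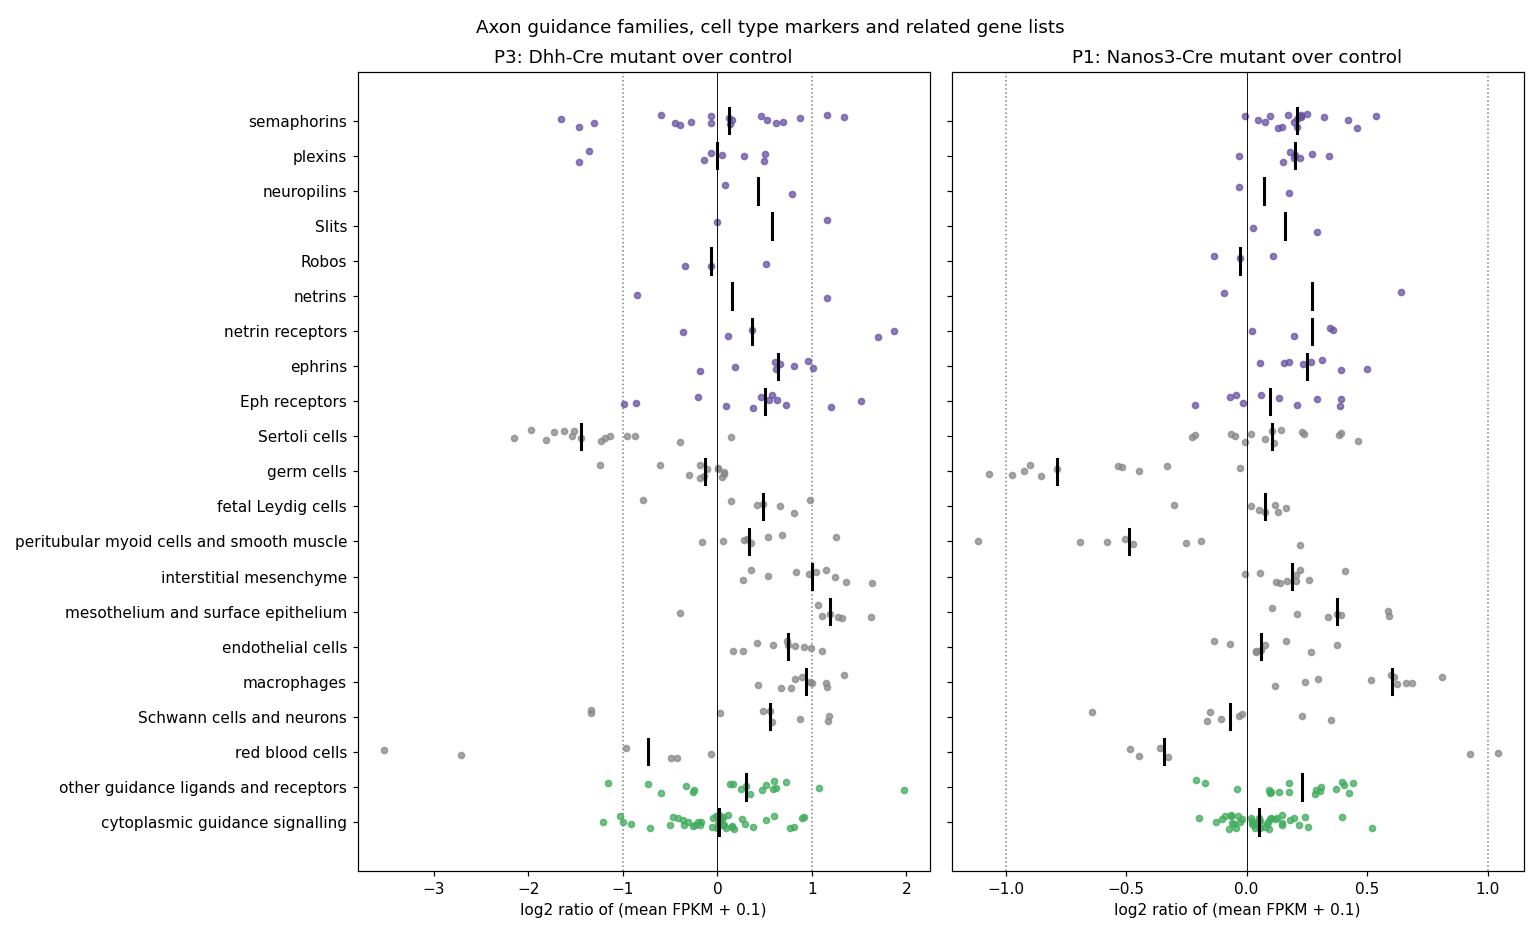
Log2 of the mutant mean FPKM over that of controls, 0.1 added to each, at P3 (left) and P1 (right, with a narrower axis) for the genes kept in each guidance family (purple), cell type marker list (grey) and list of related guidance genes (green); each point is a gene, black bars are medians and dotted lines mark 2-fold. Ephrins (median 0.64) and Eph receptors (0.50) lie mostly above 0 at P3, Sertoli cell markers lie below (-1.45), and at P1 germ cell markers are below 0 (-0.79) with no guidance gene past 2-fold.

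The controls of the 2 ages were also set side by side, to give the levels against which each mutant was read. They differ in age, in *Lrh1* genotype (flox/flox at P3, flox/- at P1) and in RNA input (500 ng in 3 of 4 samples at P1, 400 ng at P3), which cannot be told apart. Of 60 guidance genes kept, 9 were past 2-fold higher in P3 controls and 0 past 2-fold lower, where 6.36% of all 16521 genes were higher and 3.89% lower. The median over all genes was 0.15 (0.39 when each group was rescaled to the same total) and over the guidance genes 0.24. After centring on the median of all genes, 8 guidance genes were past 2-fold higher and 2 lower, where 4.71% and 5.41% of all genes were. Kept only because of their level at P3 were 3 of the 60, of which *Unc5a* and *Ephb1* are among the 9 higher. The 9 genes were the ligands *Sema4d* (1.60), *Ntn4* (1.58), *Ntn1* (1.46), *Sema6c* (1.23) and *Sema5b* (1.17) and the receptors *Ephb1* (1.47), *Unc5a* (1.38), *Epha1* (1.16) and *Plxna1* (1.02). *Sema4d*, a ligand of plexin B1, had 1.32, 1.39, 4.19 and 3.05 FPKM over the 4 groups, and *Epha1* had 1.60, 1.76, 3.69 and 5.54 FPKM. *Sema4d* and *Epha1* were thus higher at P3 in mutants as well as controls, whereas *Plxna1*, *Sema5b* and *Sema6c* were higher in P3 controls alone. Ephrins were on the other side, with 7 of 8 below 0 (median -0.34), or 5 of 8 after rescaling, the exception being *Efnb2* (3.75 and 5.84 FPKM in P1 and P3 controls, 0.63). This comparison shares its P3 controls with the *Dhh-Cre* comparison, so the values of a gene in both are not separate evidence. In the control samples, Sertoli cell markers had a median of 0.70, germ cell markers 1.74 and Leydig cell markers -1.14 between the ages, and their part was not tested.

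Counting could also touch single genes. Of the 69 genes, 22 overlap another gene model on the same strand in GENCODE M21, mostly noncoding RNA or pseudogene models, among them *Slit2*, which holds *Mir218-1*, and *Sema3a*, *Sema3d*, *Ntn1*, *Unc5c*, *Epha3*, *Epha4* and *Plxnc1*. *Dcc*, *Efna1*, *Sema5b*, *Sema6c*, *Sema7a* and *Plxna1* overlap none. *Dcc* (ENSMUSG00000060534, chromosome 18, 71253634 to 72351069, minus strand) and *Unc5c* (ENSMUSG00000059921, chromosome 3, 141465216 to 141834924, plus strand), the genes of highest ratio, had control means of 0.888 and 0.726 FPKM at P3, low enough that the 0.1 FPKM added to each mean lowered their ratios.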

How the data were processed

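Whole testes of 4 groups of 4 samples were sequenced as stranded mRNA libraries. Reads were trimmed by the authors (Trim Galore 0.6.0, cutadapt 1.18), inspected (FastQC 0.11.8), mapped with STAR 2.7.2a to GRCm38 (mm10) and counted by strand on GENCODE M25 with RSubread. For 35983 genes, the authors deposited a group's mean FPKM. How FPKM was scaled to library totals was not given in the sources used here. Because these are group means, no depth, interval, SD or test across samples could be computed, and 1 library per P1 group with a lower RNA input could not be examined. The deposited tables of called genes hold the authors' log2 fold changes, adjusted p-values and mean counts, and were not used.

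Ratios were log2((mutant + 0.1)/(control + 0.1)) over the whole table, for genes with an average of at least 0.5 FPKM in the groups compared, and 2-fold was the limit. The 69 genes came from the symbol rule. All their IDs were found in GENCODE M21 on GRCm38, from which positions come. Of the table's symbols, 21 stand for more than 1 gene ID, none of them among the 69. RefSeq promoters of GRCm38.p6 matched 59 of the 69. The genes and the 12 lists of markers and related genes were chosen with earlier results of these data known. By rule, 4 group means are given for genes past 2-fold in any comparison, the 3 of highest level in each family and those nearest the limit, and genes under 0.5 FPKM in every group are only named. The rule also covered the 2 markers of highest level in each list, of which most are given here only within the sums and medians of their list. Other values were given after being seen, and 1 marker gene past 2-fold is not reported here by name. Alternatives were other pseudocounts, minimum levels and fold limits, rescaling and centring. Python 3.11.15, numpy 2.4.6, pandas 2.3.3 and matplotlib 3.10.9 were used, and the ratio and its calls were tested on simulated data.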

Additional observations from a re-analysis of the deposited data

How the results depend on the processing

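Under the alternatives, 1017 ratios of single genes stayed within 1.5-fold of their value. Many of these could not move, because minimum levels leave a ratio unchanged and centring shifts it by at most 0.15. The other 5 (*Dcc* and *Unc5c* at P3, and *Ntn4*, *Unc5a* and *Ephb1* between control ages) shrank with 1 FPKM added, *Dcc* to 1.26 and *Unc5c* to 1.05. With that pseudocount, 173 ratios stayed. Counts depended most on the limit. Percentages in brackets are the shares of all genes kept that were called under the same setting. At P3, 20 of the 61 guidance genes kept were past 1.5-fold higher (12.5% of all genes) and 2 past 3-fold, *Dcc* and *Unc5c* (0.886%). Past 1.5-fold lower were 9 (8.34%), and 1 was past 3-fold, *Sema7a* (1.11%). With 1 FPKM added, 5 were higher (1.71% of all genes), without *Efna1*, *Epha4*, *Sema3a* and *Slit2*. Rescaling each group to the same total left 8 higher (4.77%) and 6 lower (4.14%), without *Efna1* and with *Epha2*. At P1, 1 gene was past 1.5-fold higher, *Ntn1* (3.17%). Between control ages, the 9 higher became 4 with 1 FPKM added (2.40% of all genes), 19 past 1.5-fold (18.5%), 1 past 3-fold (*Sema4d*; 2.19%) and 15 after rescaling (12.1%), and the 0 lower became 1 with no minimum level (*Epha6*; 4.67%), 6 past 1.5-fold (10.1%) and 2 after centring (*Epha3* and *Robo2*; 5.41%). Recomputed family medians stayed within 1.5-fold in 160 cases, 27 of them after centring, which could not move them. The median of the netrins *Ntn1* and *Ntn4* at P3 (0.16) was -0.64 with no minimum level, where *Ntn5* enters. It was 1.16 with a minimum of 2 FPKM, where only *Ntn1* remains. No paired analysis was possible because the values are group means. For the same reason no sample could be left out, and a ratio carried by a single library would not be seen.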
